A study of Solanum tuberosum with 8 samples.

Results

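The genes described here encode the enzymes that build the starch polymers of the potato (Solanum tuberosum): 4 starch synthases (GBSS1, SS1, SS2 and SS3) and 2 starch branching enzymes (SBE1 and SBE2). They were chosen by 6 listed gene identifiers and not by their values, though with earlier results of these data known. Of these, 4 have a row of their own in the authors' table of 35091 genes: GBSS1, SS2, SS3 and SBE1. All 4 are among the 19664 genes that the authors tested (status OK). The identifiers given for SS1 and SBE2 match no row exactly, so both genes are not analysed here under their listed identifiers. The gene names come with the list of identifiers. The table itself holds no names, and RefSeq's list of potato genes (assembly SolTub_3.0) shares 0 identifiers with it, so names could not be checked against an annotation.

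Starch synthases transfer the glucose of ADP-glucose to the end of a growing glucan chain, and branching enzymes cut such a chain and rejoin the piece as a side branch. GBSS1, the granule-bound synthase, makes the nearly unbranched polymer amylose inside the starch granule, whereas the soluble synthases and the branching enzymes build the branched polymer amylopectin. In a potato tuber starch is the main store of carbon, laid down while the tuber grows and drawn on later by the growing sprout.

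RNA was sequenced from meristems excised from the tuber buds of field-grown potatoes, cultivar Russet Burbank, in 8 samples. The 4 nondormant samples came from tubers kept at 4 °C until the buds began to sprout, labelled spring 2006, 2008, 2010 and 2011. The 4 dormant samples were cut about 2 weeks after harvest, labelled fall 2005, 2007, 2009 and 2010. The labels give no genetic change and no treatment other than storage, and the series' design states that the nondormant tubers came from the same harvests as the dormant ones, so each fall sample has a spring counterpart. Whether the authors' test used this pairing is not stated in any source used here. Between the groups, dormancy, time in storage and exposure to cold cannot be told apart. The authors' table gives 1 value per gene and group, read as FPKM (fragments per kilobase of transcript, scaled to the size of the library), with no value of a single sample. No replicate error can therefore be given for any level, the depth of each sample is unknown, and no sample can be seen to stand apart. The purity of the excised tissue could not be examined, since no marker gene can be found by name. In bulk tissue, fewer cells of a type and less RNA per cell cannot be told apart.

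The authors' test called no difference between nondormant and dormant meristems for any of the 4 starch genes. All 4 were listed at a lower value in nondormant than in dormant meristems, by 1.08-fold for SS3, 1.14-fold for SS2, 1.26-fold for GBSS1 and 1.70-fold for SBE1. A gene counts as called here when its q-value (the p-value adjusted over all tested genes) in the authors' deposited table is 0.05 or less. By this rule 0 of the 4 were called, against 10.9% of all tested genes (7.17% with the higher value in nondormant meristems and 3.75% with the higher value in dormant ones). At an unadjusted p under 0.05 in the authors' deposited table the count was also 0 of 4, against 23.5% of the tested genes. With the rule set at a q of 0.01, which could add no call, or at 0.1 it was 0 of 4 as well, where 5.14% and 15.3% of the tested genes were called. The shared direction is read against the whole table, in which 52.8% of the tested genes had the lower value in nondormant meristems. The median log2 ratio of nondormant over dormant was -0.26 over the 4 starch genes and -0.05 over the tested genes above 0 in both groups.

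**Figure D1:**
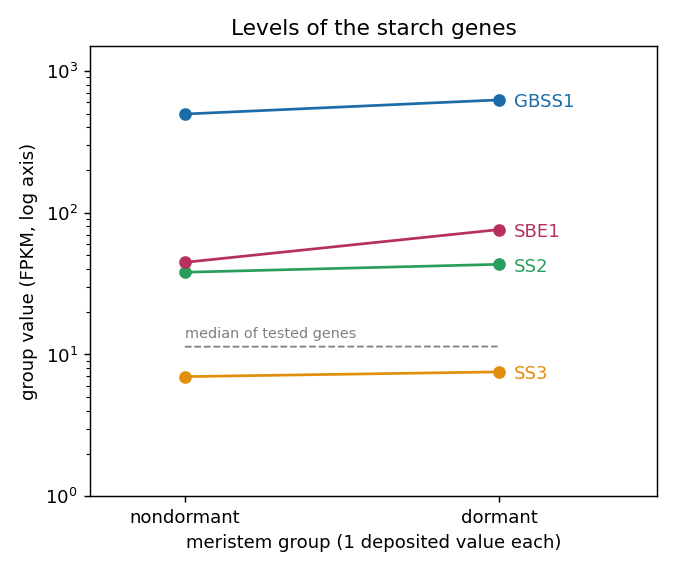
Deposited group values of the 4 starch genes in nondormant (left) and dormant (right) meristems, in FPKM on a log axis, with 1 value per group and a line joining the values of each gene; the dashed line joins the medians of the tested genes. GBSS1 lies far above the others in both groups, SS3 lies under the median in both, and every line is higher on the dormant side, most so for SBE1.

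GBSS1 (PGSC0003DMG400012111) lies on chromosome 8 from 41394810 to 41398415 in the coordinates of the authors' table, whose genome build no source used here names. It was the most abundant of the 4 starch transcripts, at 496 FPKM in nondormant meristems and 625 FPKM in dormant ones. It ranked 270th by level among the 19664 tested genes in nondormant meristems and 173rd in dormant meristems. In either state it thus stood above at least 98.6% of the tested genes. Its log2 ratio of nondormant over dormant was -0.33 (p = 0.496, q = 0.742 in the authors' deposited table).

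SS2 (PGSC0003DMG400001328), a soluble starch synthase, lies on chromosome 2 from 44641225 to 44648373. Its level was 38.0 FPKM in nondormant meristems and 43.2 FPKM in dormant ones, rank 3957 in nondormant and rank 3509 in dormant meristems. The log2 ratio was -0.19 (p = 0.624, q = 0.827 in the authors' deposited table). Both values lie well above the medians of the tested genes, which were 11.3 FPKM in nondormant meristems and 11.4 FPKM in dormant ones.

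SS3 (PGSC0003DMG400016481), a soluble synthase known in potato as a main soluble isoform of the tuber, is placed on chromosome 2 from 34828739 to 34830898. It had the lowest level of the 4 genes, with 6.98 FPKM in nondormant meristems and 7.54 FPKM in dormant ones, rank 12285 in nondormant and rank 11776 in dormant meristems. The log2 ratio of -0.11 was the nearest to 0 of the 4 (p = 0.792, q = 0.918 in the authors' deposited table). The printed interval of this row is 2160 bases long, against 3606 for GBSS1, 7149 for SS2 and 7948 for SBE1. That is shorter than the coding sequence of a full-length starch synthase III, the longest protein of the family, so the row may describe a part of the gene only, and its level is read with that limit.

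SBE1 (PGSC0003DMG400009981), a branching enzyme, lies on chromosome 4 from 63719073 to 63727020. It showed the widest gap of the 4 genes, with 44.6 FPKM in nondormant meristems and 76.0 FPKM in dormant ones. It ranked 3352nd by level among the tested genes in nondormant and 1982nd in dormant meristems. The log2 ratio was -0.77, and the difference did not pass the threshold (p = 0.0527, q = 0.219 in the authors' deposited table).

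No row carries the listed SS1 identifier, but PGSC0003DMG401018552 and PGSC0003DMG402018552 end in the same number and share 1 interval on chromosome 3, from 17071122 to 17080138. Whether either is SS1 is not annotated in the sources used here, so they are given by identifier, were picked out after their values were seen and are counted in none of the totals. PGSC0003DMG401018552 was listed at 9.91 FPKM in nondormant meristems and 4.09 FPKM in dormant ones (log2 ratio 1.28, q = 0.846 in the authors' deposited table). PGSC0003DMG402018552 was listed at 11.6 FPKM in nondormant meristems and 9.42 FPKM in dormant ones (log2 ratio 0.30, q = 0.716 in the authors' deposited table). Both had the higher value in nondormant meristems, opposite to the 4 starch genes, and neither was called. Taken from the p-value as for the intervals below, the approximate error of the log2 ratio was 2.86 for PGSC0003DMG401018552. It was 0.40 for PGSC0003DMG402018552, and the median over the tested genes was 0.45. The direction of PGSC0003DMG401018552 thus carries little weight. How reads were divided between these overlapping rows is not stated in any source used here, and their values are uncertain for that reason too. None of the 4 starch genes shares its interval with another gene.

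By absolute log2 ratio, SS3 exceeded 12.1% of the tested genes, SS2 exceeded 19.9% and GBSS1 exceeded 34.0%. SBE1 exceeded 66.7%. Counted from the gene with the greatest excess in dormant meristems, SBE1 ranked 2934th by log2 ratio, GBSS1 6788th, SS2 8336th and SS3 9169th among the tested genes. GBSS1, SS2 and SS3 thus lay among the smaller differences of the table, and SBE1 above the median difference.

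**Figure D2:**
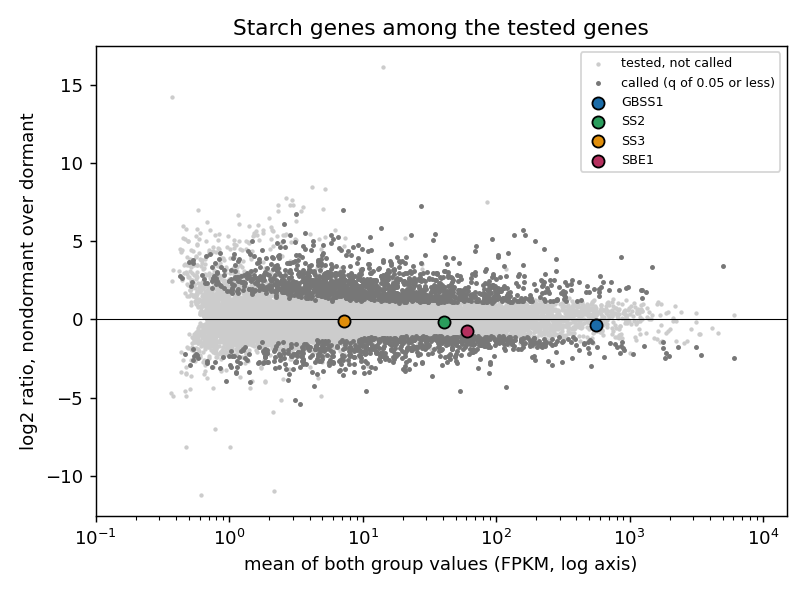
Log2 ratio of nondormant over dormant (vertical) against the mean of both group values in FPKM (horizontal, log axis) for the tested genes above 0 in both groups; dark points are called at a q of 0.05 or less and the 4 coloured points are the starch genes. All 4 lie under 0, inside the band of uncalled genes, with SBE1 at -0.77 the nearest to the called genes.

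The smallest differences that the authors' test called at these levels are set beside the uncalled genes. When the tested genes were ordered by mean FPKM and cut into 10 equal classes, SS2 and SBE1 fell in class 9 (38.7 to 78.2 FPKM), GBSS1 in class 10 (the highest) and SS3 in class 4 (4.98 to 7.89 FPKM). The smallest difference called higher in dormant meristems was 2.06-fold in class 9, 2.09-fold in class 10 and 2.54-fold in class 4. Each starch gene lay under the smallest called fold of its class. These folds are the smallest among called genes, and larger ones also went uncalled. Near SS3, PGSC0003DMG400016452 was 2.96-fold higher in nondormant meristems and was not called (q = 0.0980 in the authors' deposited table). In class 9, 284 of 1966 genes were at least as far toward dormant meristems as SBE1, and the authors' deposited table called 121 of them.

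Approximate 95% intervals for the ratios were made from the authors' deposited p-values and, separately, from their deposited test statistic, each taken as a ratio over its error with a normal distribution. Both readings are assumptions, and they gave different widths. For SBE1 the interval of the log2 ratio ran from -1.54 to 0.01 by the p-value and from -2.23 to 0.69 by the statistic. For GBSS1 it ran from -1.29 to 0.62 by the p-value and from -2.09 to 1.43 by the statistic. For SS2 the interval was -0.93 to 0.56 by the p-value and -1.60 to 1.23 by the statistic. For SS3 it was -0.94 to 0.72 by the p-value and -1.58 to 1.35 by the statistic. By the wider reading, differences of more than 2-fold in either direction lie inside the interval for GBSS1, SS2 and SS3. By the p-value such differences lie outside the interval for SS2 and SS3. For GBSS1 only those with the higher value in dormant meristems lie inside it. For SBE1, by either reading, differences of more than 2-fold lie inside the interval only where dormant meristems have the higher value. The readings cannot both hold, since they give unlike errors for the same gene. By neither does the test show that the levels of these genes were equal in both states. The errors behind these intervals were 0.38 to 0.49 on the log2 scale by the p-value, against a median of 0.45 over the tested genes. By the statistic they were larger, 0.72 to 0.90, against a median of 0.76.

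**Figure D3:**
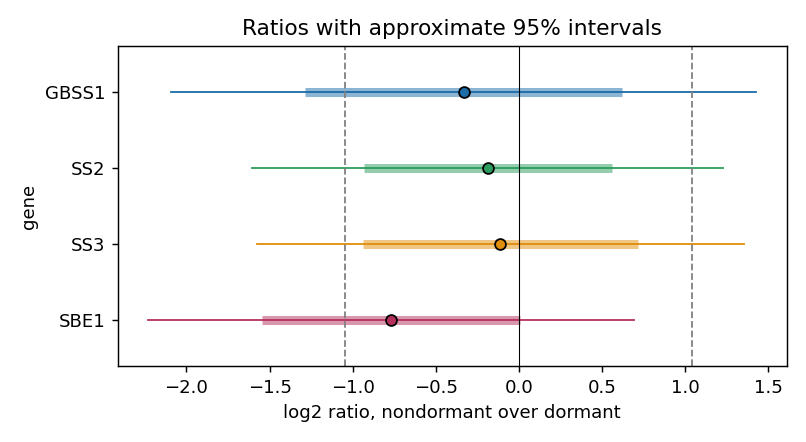
Log2 ratio of nondormant over dormant for each starch gene (points), with approximate 95% intervals from the authors' deposited p-value (thick bars) and from their test statistic (thin lines); dashed lines mark the smallest fold called in either direction over all tested genes. All points lie between the dashed lines, and every interval includes 0, for SBE1 by a narrow margin under the p-value reading.

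The order of levels was the same in both states: GBSS1 first, then SBE1, SS2 and SS3. FPKM values are scaled per length, which allows levels to be set side by side between genes, though with no spread over samples it cannot be said which neighbours in this order differ. GBSS1 stood at 13.1 times the level of SS2 in nondormant and 14.4 times in dormant meristems. It made up 91.7% of the summed FPKM of the 3 synthases in nondormant and 92.5% in dormant meristems. SBE1 and SS2 were close in nondormant meristems, with SBE1 at 1.18 times SS2, and further apart in dormant meristems, at 1.76 times. The 3 synthases together held 541 FPKM in nondormant meristems and 675 FPKM in dormant ones, which is 12.1 times SBE1 in nondormant and 8.88 times in dormant meristems. Without GBSS1 the synthases stood at 1.01 times SBE1 in nondormant and 0.668 times in dormant meristems. These sums leave out SS1 and SBE2, and the shift between states was not tested. All 4 starch genes together made up 0.0694% of the summed FPKM of the table in nondormant and 0.0881% in dormant meristems.

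The genes next to the starch genes on their chromosomes did not share their small ratios throughout. Among the 2 nearest tested genes on each side of each starch gene, 16 in all, the authors' deposited table called 4, beside 10.9% of all tested genes (7.17% with the higher value in nondormant meristems and 3.75% in dormant ones). The higher value was the nondormant one in 3 of the 4 and the dormant one in 1, and no test was made of so small a count. The gene that starts 1.78 kb beyond SBE1, from 63728804 to 63735566, had 17.6 FPKM in nondormant meristems and 34.2 FPKM in dormant ones and was not called (q = 0.0912 in the authors' deposited table). The next tested gene beyond it, from 63736950 to 63740016, had 35.1 FPKM in nondormant meristems and 4.79 FPKM in dormant ones and was called (q = 0.00179 in the authors' deposited table). On the other side of SBE1, the nearest tested gene, 0.559 kb away, was not called (q = 0.991 in the authors' deposited table). It had 44.4 FPKM in nondormant meristems and 44.8 FPKM in dormant ones. The gene beyond it, from 63711182 to 63713592 and 5.48 kb from SBE1, was called (q = 0.0387 in the authors' deposited table). That gene had 20.1 FPKM in nondormant meristems and 8.34 FPKM in dormant ones. Both called neighbours of SBE1 had the higher value in nondormant meristems, whereas SBE1 itself was not called.

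Beside GBSS1, the gene from 41386368 to 41391459, 3.35 kb away, had 108 FPKM in nondormant meristems and 304 FPKM in dormant ones, a called difference of 2.82-fold (q = 0.0149 in the authors' deposited table). The tested gene on its other side, 0.222 kb away, had 21.1 FPKM in nondormant meristems and 23.1 FPKM in dormant ones (q = 0.885 in the authors' deposited table). Next to SS2, the gene from 44659657 to 44669383 had 13.0 FPKM in nondormant meristems and 5.31 FPKM in dormant ones and was called (q = 0.0353 in the authors' deposited table). The 4 nearest tested genes of SS3 include no called gene.

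**Figure D4:**
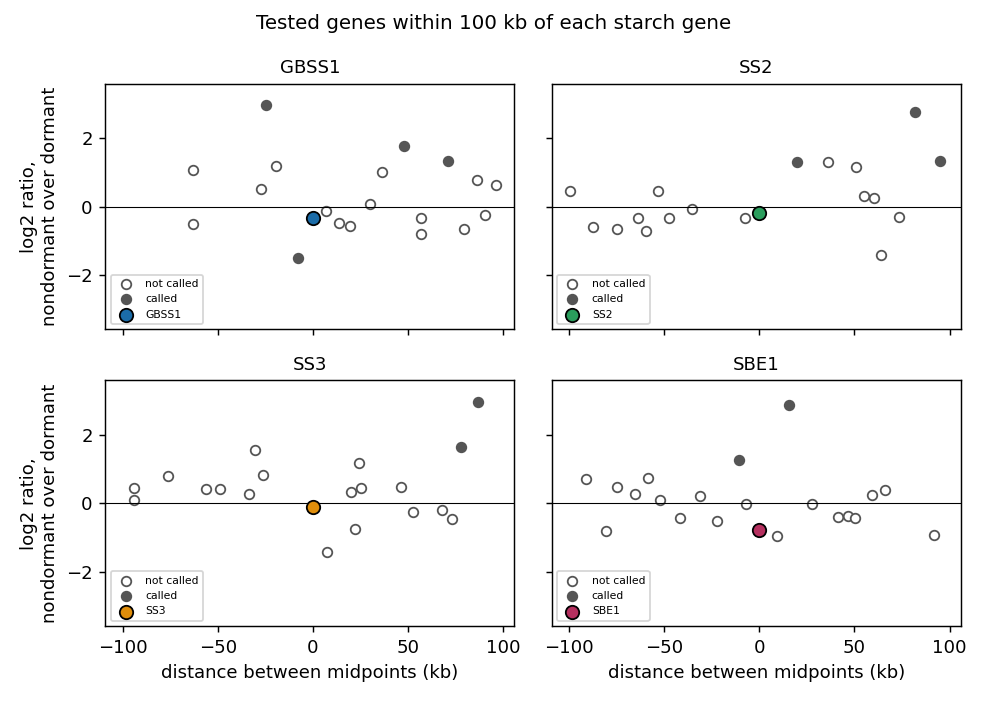
Log2 ratio of nondormant over dormant for each tested gene within 100 kb of a starch gene (vertical), by the distance between gene midpoints in kb (horizontal), with filled points for called genes and the starch gene in colour at 0. The windows hold 2 to 4 called genes among 18 to 20 tested, where 10.9% of all tested genes were called and 7.17% were called with the higher value in nondormant meristems.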

How the data were processed

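The authors deposited 1 table that compares both groups of meristems for each gene. Values per group were made by the authors and are read as FPKM because columns and status words follow Cuffdiff's layout; the header prints no unit. The deposited test statistic is a score of unstated scale. The deposited p-value and q-value are the authors' own, and recomputing the adjustment over the tested genes gave the deposited q. No source used here gives the aligner, its version, the build, the annotation or how samples were combined, and the spread that the p-values measure may be technical.

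Log2 ratios were computed without a pseudocount, since the deposited log2 column is broken by spreadsheet errors. Ranks are over status OK genes. Members and lists were chosen with earlier results of these data known. Other starch genes and cell type markers were to be named only where an identifier matched a name, and 0 matched; the rule otherwise named all members and the genes nearest in both log2 values to the members of largest and smallest ratio. A limma test needed values per sample and was not run. Alternatives covered pseudocounts of 0.1, 1 and 4, scaling, thresholds, adjustment and a mean of at least 1 FPKM. The scripts were tested on simulated data. Software was Python 3.11.15 with scipy 1.17.1, numpy 2.4.6 and pandas 2.3.3, and figures were drawn with matplotlib 3.10.9.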

Additional observations from a re-analysis of the deposited data

How the results depend on the processing

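None of the starch genes was called under a q of 0.01 or 0.1 or the Benjamini-Yekutieli adjustment. None was called under an adjustment over tested genes with a mean of at least 1 FPKM. A q of 0.01 and the Benjamini-Yekutieli adjustment are stricter than the main rule, so neither could add a call. The lowest q under any of these alternatives was 0.219, for SBE1, which is its deposited q unchanged. Over the pseudocounts and scalings all log2 ratios stayed below 0, from -0.77 to -0.72 for SBE1, -0.46 to -0.28 for GBSS1, -0.19 to -0.13 for SS2 and -0.15 to -0.06 for SS3. A pseudocount cannot change the sign of a ratio, so only the scalings could have done so. Ranks stayed within 1.5 times in 24 of 24 alternatives. Leaving out genes with a mean under 1 FPKM could not move the ranks by level, since all the starch genes lie well above it. Leaving out GBSS1 moved the summed synthases over SBE1 to 1.01 in nondormant and 0.668 in dormant meristems, since that gene holds most of the sum. Adding the rows that share the SS1 number, chosen after seeing the data, gave 12.6 in nondormant and 9.06 in dormant meristems. No paired analysis was possible because the table gives 1 value per group, although the groups share their harvests, and replicates could not be left out for the same reason. Depth per sample is unknown, so what it limits cannot be stated.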

Other observations

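Within 100 kb of the starch genes the authors' deposited table tested 18 to 20 other genes each, a window chosen after seeing the data. Over the whole table it called 10.9% of the tested genes, 7.17% with the higher value in nondormant meristems and 3.75% in dormant ones. Around GBSS1 it called 4 of 19, of which 3 were higher in nondormant meristems, and around SS2 it called 3 of 18, all 3 higher in nondormant meristems. Around SS3 it called 2 of 19 and around SBE1 2 of 20, close to the share of the whole table, and these too were higher in nondormant meristems. The counts are too small to set any window apart from the table, and no test was made. The median log2 ratio of nondormant over dormant in these windows was 0.07 around GBSS1, 0.09 around SS2, 0.42 around SS3 and 0.05 around SBE1, while the starch genes themselves were all below 0.

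The tested gene whose levels were most like those of SBE1 was PGSC0003DMG400022675 on chromosome 1, with 45.1 FPKM in nondormant meristems and 76.1 FPKM in dormant ones, a distance of 0.014 in the plane of both log2 values. A further count showed 29 tested genes within a distance of 0.1 of SBE1. The gene nearest to SS3 was PGSC0003DMG400002427 on chromosome 6, with 7.0 FPKM in nondormant meristems and 7.49 FPKM in dormant ones, at a distance of 0.011, and 62 tested genes lay within 0.1. Likeness over 2 values says little, since many genes share them.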
